A study of Mus musculus with 8 samples.

Results

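The homeobox genes Gsx1, Gsx2, Dlx1, Dlx2, Dlx5 and Dlx6 were followed across 8 single-colour arrays of mouse neurospheres. They were taken by gene name and are 6 of the 35682 gene names on the array. They are read by 7 probes, 2 of them for Gsx2, and the brighter one was used. All 6 were well above background on at least 2 arrays and so entered the 27264 genes tested. Neurospheres are balls of neural stem and progenitor cells grown in suspension (labelled NSPCs), and these were made from EB3, a mouse embryonic stem cell line, by way of Noggin-treated embryoid bodies and culture in FGF2. Lentivirus went onto dissociated embryoid body cells in every group, controls included. At passage 2 (P2, tertiary neurospheres) and at passage 0 (P0, primary neurospheres), 4 conditions were measured: an shRNA against Nr2f1 and Nr2f2, its control shRNA against firefly luciferase, miR-17, and a control miRNA. All groups shared 6 days of culture, embryoid bodies of day 6, a multiplicity of infection of 25 and FGF2 at 20 ng/ml. Each of the 8 groups was 1 array of 1 stem cell line, so differences between single arrays have no replicate check, and independent growth of the cultures is not stated in the labels.

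Gsx and Dlx genes encode homeodomain transcription factors of the embryonic nervous system. In the subpallium, the ventral forebrain, Gsx1 and Gsx2 act in ventricular progenitors, where Gsx2 sets lateral ganglionic eminence identity against pallial identity. Dlx1 and Dlx2 act below them and switch on Dlx5, Dlx6 and genes of GABA synthesis as cells become inhibitory neurons. The Dlx genes lie in the genome as the convergent pairs Dlx1 and Dlx2, and Dlx5 and Dlx6, each pair sharing enhancers between its members. Gsx genes also mark dorsal interneuron progenitors of the spinal cord and hindbrain, and Dlx genes act in branchial arch mesenchyme and surface ectoderm, so none of the 6 names a single region by itself.

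The measurement rests on the probe sequences, so the first 30 bases of each 60-base probe are given 5′ to 3′, with no part marked in capitals. The Gsx1 probe lies at chr5:148002422-148002481 on the plus strand of mm9, and the Gsx2 probes at chr5:75473487-75473546 and chr5:75473670-75473729 on the plus strand. The Dlx1 probe lies at chr2:71371499-71371558 (plus), Dlx2 at chr2:71381553-71381612 (minus), Dlx5 at chr6:6828063-6828122 (minus) and Dlx6 at chr6:6815092-6815151 (plus). The position of these probes within exons and untranslated regions was not analysed here.
Gsx1: ggactgactgactgtgtcattgtatcgtct
Gsx2, probe used: agctcctctttatctgggattccactcagt
Gsx2, second probe: tgtcttttcagaacttgatgagaagagggg
Dlx1: gttgtcaaaaacgtttggacaagaacacct
Dlx2: gatttgaatttgtttttatcttgtcctaaa
Dlx5: gtgttgtgctggtttagaaatcagaaagaa
Dlx6: acagtgatcgaaaacggggaaatcaggttc
Over the 20 pairs of probes of different members, the longest run of bases that 2 whole probes had in common was 8 bases. The probes of different members were therefore separate sequences, and whether a probe also binds the transcript of another member was not tested.

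Because the 6 genes had like patterns over the arrays, the promoters of those with a window in the RefSeq table (GRCm38.p6) were searched for 3 motifs on both strands. These were AGGTCA, the half-site of nuclear receptors such as Nr2f1 and Nr2f2, CANNTG, the E-box of bHLH factors, and TAATTA, the core of many homeodomain sites (no match of one overlapped a match of another). Windows were present for Dlx1, Dlx2, Gsx1 and Gsx2. The 150 bases before each start are shown with matches in capitals, from chr2:71529295-71529444 (plus) for Dlx1, chr2:71546755-71546904 (minus) for Dlx2, chr5:147188546-147188695 (plus) for Gsx1 and chr5:75075451-75075600 (plus) for Gsx2.
Dlx1: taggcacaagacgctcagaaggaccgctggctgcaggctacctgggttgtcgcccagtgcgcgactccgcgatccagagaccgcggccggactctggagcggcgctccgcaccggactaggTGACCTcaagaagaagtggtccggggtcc
Dlx2: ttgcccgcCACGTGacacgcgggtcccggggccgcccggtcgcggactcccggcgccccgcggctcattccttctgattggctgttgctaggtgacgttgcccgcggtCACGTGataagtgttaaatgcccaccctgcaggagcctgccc
Gsx1: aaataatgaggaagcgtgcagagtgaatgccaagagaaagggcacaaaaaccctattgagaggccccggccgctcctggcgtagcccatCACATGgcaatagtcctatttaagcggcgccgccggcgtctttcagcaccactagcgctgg
Gsx2: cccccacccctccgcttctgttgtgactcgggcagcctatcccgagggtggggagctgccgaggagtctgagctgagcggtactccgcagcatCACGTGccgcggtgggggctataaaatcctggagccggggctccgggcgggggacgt
In the whole 300-base windows, Dlx1 held 1 AGGTCA match (29 bases before the start, on the reverse strand) and no CANNTG. Dlx2 held 3 CANNTG matches, Gsx1 held 2 and Gsx2 held 1, and none of these 3 held AGGTCA. No window of the 4 held TAATTA. Of 32851 promoter windows of the same length, 16.3% held AGGTCA, 72.3% CANNTG and 5.29% TAATTA, so a match here describes the letters and no more.

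The label of neural cells was checked first, and 10 of 10 neural progenitor markers and 7 of 7 neuron markers were well above background on every array. A marker counted here through any of its probes. By the brightest probe alone, 20687 of the 35682 gene names were well above background on all 8 arrays, so detection alone says little about a tissue. Astrocyte markers (Gfap, Aqp4, S100b, Aldh1l1) differed between the cultures, with a summed relative signal (1 being the array's 75th percentile) of 5.73 in Nr2f1/2 shRNA, 45.5 in control shRNA, 208 in miR-17 and 247 in control miRNA at P2, and of 0.738 to 1.93 at P0. The summed neuron markers were 79.6, 93.7, 50.9 and 39.6 in the same order at P2, and 80.3 to 111 at P0. The summed pluripotent cell markers (Pou5f1, Nanog, Zfp42, Dppa5a) were 1.54, 2.60, 1.24 and 1.68 in that order at P2. At P0 they were 22.3, 22.6, 2.72 and 2.67, with Dppa5a alone at 20.3 in Nr2f1/2 shRNA and 20.8 in control shRNA. Of the other tissues that express Dlx genes, 9 of 14 crest and arch mesenchyme markers were well above background on all 8 arrays. Foxd3, which defines early crest, was so on none. The sums of this list were 8.28 to 45.6 at P2 and 3.04 to 7.30 at P0, but its genes did not move together. Of 12 tested, 3 were called higher at P2 (Prrx1, Prrx2 and Col1a1) and 2 lower (Tfap2a and Tfap2b), beside 2.60% and 2.36% of all genes. For surface ectoderm and placode, 8 of 10 markers were well above background on all 8 arrays, with sums of 22.0 to 34.6 at P2 and 30.9 to 48.3 at P0. The targets of the shRNA were lower on the Nr2f1/2 shRNA arrays, Nr2f1 at 44.4% and Nr2f2 at 53.6% of control shRNA at P2, and 57.8% and 70.4% at P0. The control miRNA arrays, which carry no such shRNA, were at 171% for Nr2f1 and 43.5% for Nr2f2 of control shRNA at P2, and at 47.2% and 46.2% at P0, so the knockdown differences were of the size seen between the control cultures.

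The Gsx genes are the progenitor factors of the group. Gsx2 was lower in tertiary neurospheres in all 4 conditions and Gsx1 in 3, Nr2f1/2 shRNA being the exception. Gsx1 had a relative signal of 1.17 in Nr2f1/2 shRNA, 0.819 in control shRNA, 0.259 in miR-17 and 0.233 in control miRNA at P2, against 0.985, 2.43, 2.66 and 3.0 at P0 in the same order. Both miRNA cultures at P2 lay far below every other array, and the Nr2f1/2 shRNA array at P2 lay above its own P0 array. Gsx2 had 0.218, 0.029, 0.00908 and 0.0215 at P2, against 0.943, 1.64, 1.09 and 1.08 at P0, again in that order, and both miRNA arrays at P2 were not well above background. The Gsx2 arrays of the 2 passages did not overlap. The second Gsx2 probe gave 0.162, 0.0154, 0.0052 and 0.0126 at P2, against 0.802, 1.32, 0.911 and 0.93 at P0 in that order, with the last 3 of the P2 values not well above background. Both probes placed Nr2f1/2 shRNA highest at P2 and lowest at P0.

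Dlx1 and Dlx2, the first Dlx genes to come on in subpallial progenitors, had nearly level signals in 3 of the 4 primary cultures and spread widely in the tertiary ones. Dlx1 had 4.49 in Nr2f1/2 shRNA, 1.64 in control shRNA, 0.363 in miR-17 and 0.215 in control miRNA at P2, against 1.90, 4.24, 4.02 and 3.79 at P0 in the same order of conditions. Its highest value of all 8 arrays was thus in the tertiary Nr2f1/2 shRNA culture. Dlx2 had 7.85, 1.59, 0.527 and 0.292 at P2, against 4.80, 10.4, 9.09 and 9.38 at P0 in the same order of conditions. The P2 and P0 arrays overlapped for both genes, in each case through Nr2f1/2 shRNA, whose P0 array was the lowest primary one.

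Dlx5 and Dlx6, which follow Dlx1 and Dlx2 as cells leave the cycle, had the same order of P2 arrays. Dlx5 had 1.03 in Nr2f1/2 shRNA, 0.433 in control shRNA, 0.159 in miR-17 and 0.0854 in control miRNA at P2, against 0.907, 1.89, 1.82 and 1.58 at P0 in the same order of conditions. Dlx6 had 0.198, 0.126, 0.0975 and 0.0493 at P2, against 0.200, 0.290, 0.266 and 0.213 at P0 in the same order of conditions. The 2 passages of Dlx6 did not overlap, although the Nr2f1/2 shRNA arrays were nearly level with each other. All 6 genes had their lowest 2 arrays in the control miRNA and miR-17 cultures at P2, an arrangement that 19.4% of all tested genes had, and all 6 had Nr2f1/2 shRNA as the highest P2 array, as 33.5% of all genes did. Between the lowest and the highest array Gsx2 spanned at least 181-fold (its lowest array being not well above background), Dlx2 35.8-fold, Dlx5 22.1-fold, Dlx1 20.9-fold, Gsx1 12.9-fold and Dlx6 5.88-fold.

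**Figure D1:**
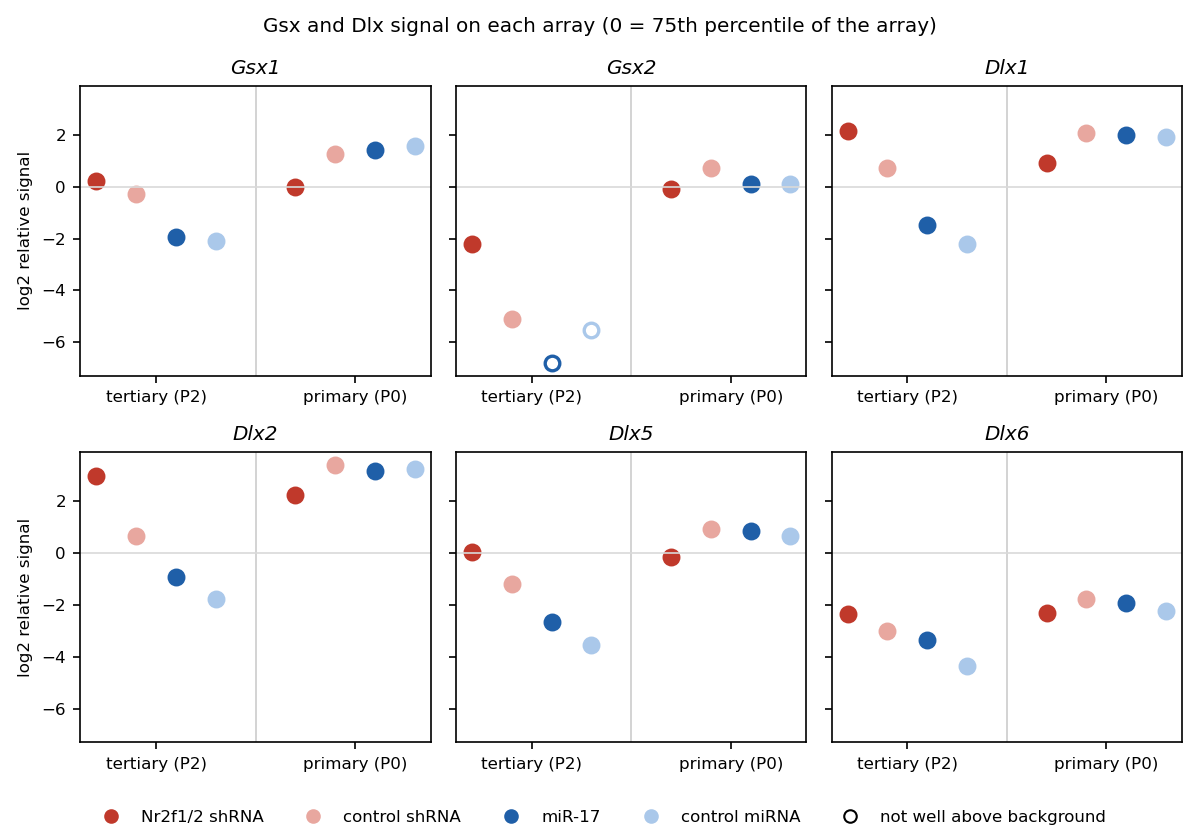
Log2 relative signal (vertical axis, 0 being the array's 75th percentile) of Gsx1, Gsx2, Dlx1, Dlx2, Dlx5 and Dlx6, with 1 point for each array, tertiary arrays left of primary ones. In every panel the 2 miRNA arrays at P2 are lowest and Nr2f1/2 shRNA is the highest P2 point, and open circles mark the Gsx2 values not well above background.

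Averaged over conditions, all 6 genes were lower at P2, and 1 of them, Gsx2, fell past the threshold. Gsx2 averaged -4.91 ± 1.94 log2 units at P2 and 0.22 ± 0.35 at P0 (SD, n = 4 arrays of 4 conditions). The fitted fall was 34.9-fold (log2 -5.13, SE 0.81, adjusted p = 0.043 in limma over all genes), with 2 of 4 P2 arrays well above background. With the normexp background correction the Gsx2 fall was 9.07-fold (log2 -3.18), so its size varied with the background correction. This 1 of 6 stands against 4.96% of all tested genes called for passage, made up of 2.36% lower at P2 and 2.60% higher. In bulk RNA, fewer cells of a type and less RNA per cell cannot be told apart. For the other 5 the fitted log2 differences of P2 minus P0 were -2.78 (SE 0.97, adjusted p = 0.102) for Dlx2, -2.42 (SE 0.75, 0.086) for Dlx5, -2.09 (SE 0.71, 0.098) for Gsx1, -1.93 (SE 0.94, 0.181) for Dlx1 and -1.20 (SE 0.37, 0.085) for Dlx6, in the same limma fit. The spread between tertiary cultures was wide for these, with means of 0.24 ± 2.09 at P2 and 3.01 ± 0.51 at P0 for Dlx2, -1.84 ± 1.58 at P2 and 0.58 ± 0.49 at P0 for Dlx5, and -0.20 ± 2.01 at P2 and 1.73 ± 0.54 at P0 for Dlx1. Gsx1 averaged -1.03 ± 1.17 at P2 and 1.06 ± 0.73 at P0, and Dlx6 -3.26 ± 0.84 at P2 and -2.06 ± 0.25 at P0. The P2 and P0 arrays did not overlap for 2 of the 6, Gsx2 and Dlx6, against 15.2% of all genes that lay lower at P2 without overlap. The same 2 were lower at P2 in all 4 conditions, which held for 32.1% of genes, and the other 4 were lower in 3 of 4. An unadjusted p under 0.05 was reached by 5 of the 6, against 26.2% of genes lower at P2 at that limit. The median difference of the 6 was -2.25, beside -0.21 over all tested genes (-0.02 with quantile normalization, under which the same 1 of 6 was called).

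The passage result turned on the Nr2f1/2 shRNA cultures. Leaving out either of their arrays, which takes that condition out of the comparison, all 6 genes were called, with 17.7% of all genes called and 9.62% called lower at P2. The log2 differences over the other 3 conditions were then -2.87 (SE 0.49, adjusted p = 0.0325) for Gsx1, -6.13 (SE 0.34, 0.0122) for Gsx2, -2.99 (SE 0.60, 0.0421) for Dlx1, -3.94 (SE 0.50, 0.0211) for Dlx2, -3.28 (SE 0.46, 0.0245) for Dlx5 and -1.59 (SE 0.28, 0.0338) for Dlx6 in limma. Without any 1 of the other 6 arrays, no gene on the array was called, and the adjusted p of Gsx2 was 0.133 to 0.163. In the miRNA arrays alone all 6 were called, with 50.6% of all genes called and 31.3% called lower, and in the shRNA arrays alone none was, nor was any other gene (0%).

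Taken condition by condition, the P2 signal of the Dlx genes and Gsx1 was a smaller share of P0 in the miRNA cultures than with control shRNA. For Gsx2 the bound with miR-17 also lay below the control shRNA share, while the bound with control miRNA does not settle the order. With Nr2f1/2 shRNA 1 gene was lower by 2-fold. In miR-17 and control miRNA cultures the P2 signal was 5.80% and 3.11% of P0 for Dlx2, 9.03% and 5.68% for Dlx1, 8.73% and 5.42% for Dlx5, 9.75% and 7.76% for Gsx1, and 36.6% and 23.1% for Dlx6. Gsx2 was at least 120-fold lower in miR-17 and at least 50.4-fold lower in control miRNA cultures. With control shRNA the P2 signal was 1.76% of P0 for Gsx2, 15.3% for Dlx2, 22.9% for Dlx5, 33.8% for Gsx1, 38.7% for Dlx1 and 43.4% for Dlx6. In each of these 3 conditions 6 of 6 genes were lower at P2 by 2-fold or more, against 28.0% of all genes in miR-17, 28.3% in control miRNA and 13.9% in control shRNA. With Nr2f1/2 shRNA the P2 signal was 236% of P0 for Dlx1, 164% for Dlx2, 119% for Gsx1, 113% for Dlx5, 98.7% for Dlx6 and 23.1% for Gsx2. There 1 gene, Gsx2, was lower by 2-fold or more (8.16% of all genes) and 1, Dlx1, was higher (6.33%).

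**Figure D2:**
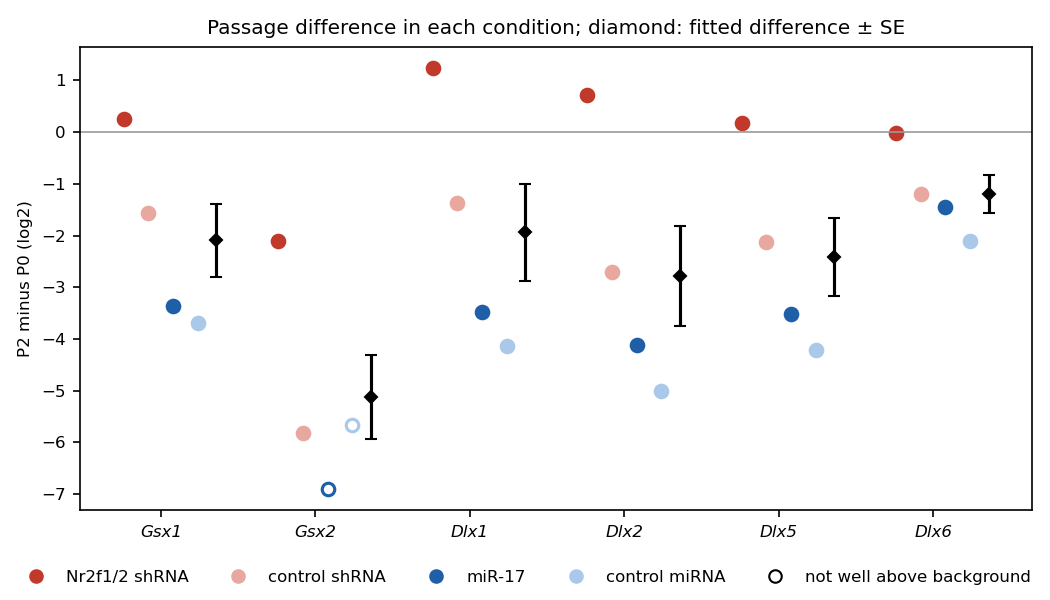
P2 minus P0 (log2, vertical axis) for each gene, with 1 coloured point for each condition and a black diamond with bars for the fitted difference ± SE. The Nr2f1/2 shRNA point is the highest for all 6 genes and lies at or above -0.02 for all but Gsx2, and open circles involve a Gsx2 array not well above background.

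Nr2f1/2 shRNA, directed at the COUP-TF receptors, was compared with its control at each passage, and the differences between the single arrays had opposite signs at P2 and P0. At P2 all 6 genes were higher with Nr2f1/2 shRNA than with control shRNA, and 4 of them 2-fold or more, against 9.00% of all genes (9.86% were lower). Gsx2 was 7.53-fold higher, Dlx2 4.93-fold, Dlx1 2.74-fold, Dlx5 2.37-fold, Dlx6 1.57-fold and Gsx1 1.43-fold. At P0 all 6 were lower with Nr2f1/2 shRNA, and 4 of them 2-fold or more, against 1.21% of all genes. Gsx1 was at 40.6% of control shRNA, Dlx1 at 44.9%, Dlx2 at 46.0%, Dlx5 at 48.0%, Gsx2 at 57.4% and Dlx6 at 69.1%. The median log2 difference of the 6 was 1.35 at P2, beside 0.07 over all genes, and -1.09 at P0, beside 0.00085 over all genes. Each of these values compares 2 arrays.

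Tested over both passages, no gene on the array was called for Nr2f1/2 shRNA in limma, while 518 genes (1.90%) had an unadjusted p under 0.05. The 6 genes had log2 differences of -0.39 (SE 1.0) for Gsx1, 1.06 (SE 1.14) for Gsx2, 0.15 (SE 1.32) for Dlx1, 0.59 (SE 1.37) for Dlx2, 0.09 (SE 1.07) for Dlx5 and 0.06 (SE 0.53) for Dlx6, each with an adjusted p of 0.999. Each averages a positive difference at P2 with a negative one at P0. Set against its own control alone, the Nr2f1/2 shRNA difference at P2 exceeded that at P0 by 3.71 log2 units for Gsx2, 3.42 for Dlx2, 2.61 for Dlx1, 2.30 for Dlx5, 1.82 for Gsx1 and 1.19 for Dlx6, each from 4 arrays with no test. The tested interaction set the passage difference with Nr2f1/2 shRNA against the mean passage difference of control shRNA and control miRNA, with 1 residual degree of freedom, so the control miRNA arrays enter it. It was 4.57 log2 units (SE 1.20, unadjusted p = 0.019 in limma) for Dlx2, 3.99 (SE 1.38, 0.044) for Dlx1, 3.63 (SE 0.69, 0.006) for Gsx2, 3.34 (SE 1.13, 0.041) for Dlx5, 2.88 (SE 1.14, 0.065) for Gsx1 and 1.64 (SE 0.79, 0.105) for Dlx6. An unadjusted p under 0.05 was thus reached by 4 of 6, against 3.95% of all genes and 1.64% in the positive direction. After adjustment over all genes none was called, the smallest adjusted p on the array being 0.9998. For Gsx2 the passage differences of the controls were -5.83 with control shRNA and -5.65 with control miRNA. The control miRNA array at P2 was not well above background for Gsx2, so its SE and p rest partly on an undetected signal. With the normexp background correction the Gsx2 interaction was 1.75. The astrocyte marker sum at P2 was 5.73 in Nr2f1/2 shRNA against 45.5 in control shRNA, and its part in the result was not tested.

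**Figure D3:**
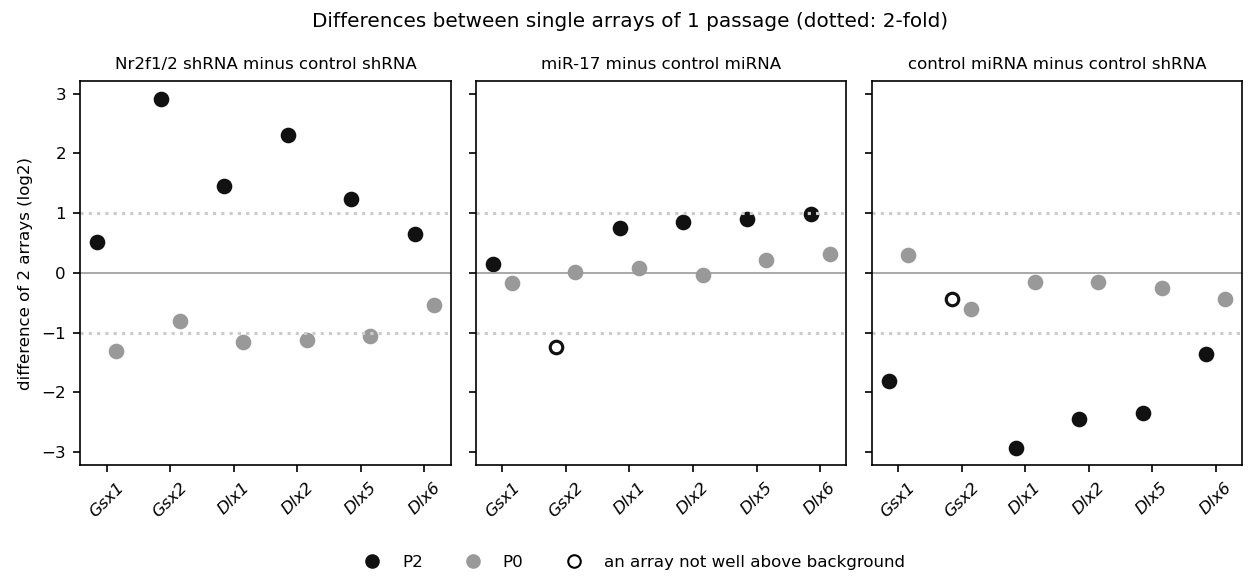
Log2 differences between 2 single arrays of the same passage for each gene, black for P2 and grey for P0, with dotted lines at 2-fold. In the left panel all 6 black points lie above 0 and all 6 grey points below, in the middle panel the measured points lie within 2-fold, and in the right panel 5 of 6 black points lie below the lower dotted line.

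miR-17, a microRNA of the miR-17-92 cluster linked to the timing of neurogenic and gliogenic competence, was set against the control miRNA. Its mature sequence, with the seed that pairs with targets (bases 2 to 8) in capitals, is that of mmu-miR-17-5p at chr14:115043684-115043706 (plus, GRCm38.p6), from RefSeq.
mmu-miR-17-5p: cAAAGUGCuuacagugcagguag
At P2 the Dlx genes were somewhat higher with miR-17, at 198% of control miRNA for Dlx6, 186% for Dlx5, 181% for Dlx2 and 168% for Dlx1, and the Gsx1 log2 difference was 0.16. No gene reached 2-fold higher, against 4.16% of all genes, and Gsx2 was not well above background on either array. At P0 the log2 differences were between -0.17 (Gsx1) and 0.32 (Dlx6), and none of the 6 reached 2-fold in either direction, against 4.62% of all genes higher and 2.15% lower. Over both passages the fitted differences were 0.65 (SE 0.53) for Dlx6, 0.55 (SE 1.07) for Dlx5, 0.42 (SE 1.32) for Dlx1, 0.41 (SE 1.37) for Dlx2, -0.01 (SE 1.0) for Gsx1 and -0.62 (SE 1.14) for Gsx2. No gene on the array was called for miR-17 in limma, and 271 genes (0.994%) had an unadjusted p under 0.05. Set against control miRNA alone, the miR-17 difference at P2 exceeded that at P0 by 0.90 log2 units for Dlx2, 0.69 for Dlx5, 0.67 for Dlx1, 0.66 for Dlx6 and 0.33 for Gsx1, with no test. The tested interaction, which set the miR-17 passage difference against the mean of both controls, was between -1.17 (Gsx2) and 0.21 (Dlx6), and was negative for Gsx1, Dlx1, Dlx2 and Dlx5. No gene was called for it, and 297 genes (1.09%) had an unadjusted p under 0.05. For Dlx2 at P2 the 1.81-fold higher signal with miR-17 stands beside 4.93-fold with Nr2f1/2 shRNA, each over its own control, and the difference between the manipulations was not tested.

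Between the 2 control cultures, which carry neither manipulation, the signals of the 6 genes were close at P0. At P2 those of all but Gsx2 were far apart. With control miRNA the P2 log2 difference from control shRNA was -2.93 for Dlx1, -2.45 for Dlx2, -2.34 for Dlx5, -1.82 for Gsx1 and -1.35 for Dlx6, so 5 of 6 genes were lower by 2-fold or more, against 13.8% of all genes (10.9% were higher). Gsx2 was lower by at least 1.35-fold. At P0 the same differences ran from -0.60 for Gsx2 to 0.30 for Gsx1, and none reached 2-fold (16.5% of all genes higher, 5.11% lower). For Dlx1, Dlx2, Dlx5, Dlx6 and Gsx1 the log2 distance between the controls at P2 was larger than that between Nr2f1/2 shRNA and control shRNA, both taken from the same control shRNA array. Over both passages no gene on the array was called between the controls in limma, the adjusted p of the 6 being 0.578 to 0.881, and 2613 genes (9.58%) had an unadjusted p under 0.05. Since the shRNA arrays filled slide column 1 and the miRNA arrays filled column 2, culture, vector system and column cannot be told apart. Astrocyte marker sums of 247 in control miRNA against 45.5 in control shRNA at P2 went with this difference, and their part in it was not tested.

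Antisense transcripts of the Dlx pairs were measured by probes on the opposite strand. Dlx6os1, the noncoding RNA also known as Evf2 that is transcribed through the Dlx5 and Dlx6 enhancers, had 1.88 in Nr2f1/2 shRNA, 0.635 in control shRNA, 0.0671 in miR-17 and 0.022 (not well above background) in control miRNA at P2, against 1.09, 2.27, 1.38 and 1.18 at P0 in the same order of conditions. Its order over the P2 arrays was that of Dlx5 and Dlx6, and the fitted passage difference was -2.79 (SE 1.11, adjusted p = 0.127 in limma). Dlx1as, antisense to Dlx1, was well above background on 1 of 4 P2 arrays, with 0.0413 in Nr2f1/2 shRNA, and on all 4 P0 arrays, with 0.0467, 0.137, 0.119 and 0.123 in the order used above (log2 -2.98, SE 0.75, adjusted p = 0.067). At P2 Nr2f1/2 shRNA exceeded control shRNA by at least 3.04-fold for Dlx1as and by 2.96-fold for Dlx6os1, and at P0 it was lower by 1.56 and 1.06 log2 units. Dlx6os2, from the same locus as Dlx6, was instead level, with 0.614, 0.365, 0.55 and 0.70 at P2 and 0.607, 0.546, 0.613 and 0.527 at P0 in the same order of conditions (log2 -0.08, SE 0.23, adjusted p = 0.813).

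Dlx3 and Dlx4, which have their best known roles outside the brain, had other patterns. Dlx3, a gene of placode and surface ectoderm, had 2.21 in Nr2f1/2 shRNA, 2.78 in control shRNA, 3.20 in miR-17 and 3.39 in control miRNA at P2, against 2.06, 2.44, 1.17 and 1.37 at P0, and Nr2f1/2 shRNA was the lowest of its P2 arrays (passage log2 0.76, SE 0.32, adjusted p = 0.140 in limma). Dlx4 was not well above background on any P0 array or on the Nr2f1/2 shRNA array at P2, and it was higher at P2 by at least 25.6-fold in miR-17, 9.52-fold in control miRNA and 1.91-fold in control shRNA cultures (log2 2.57, SE 0.78, adjusted p = 0.082). None of the 5 other Dlx family and antisense transcripts was called for passage in either direction, and their median passage difference was -0.08.

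Among other subpallial regulators few passed the test for passage. Of 14 tested of 15 listed, none was called higher (2.60% of all genes) and 1, Sp8, was called lower (2.36% of all genes), and the median difference was -0.38, beside -0.21 over all genes. Sp8, a zinc finger factor of lateral ganglionic eminence derivatives, had 3.57 in Nr2f1/2 shRNA, 0.715 in control shRNA, 0.627 in miR-17 and 0.633 in control miRNA at P2, against 6.74, 5.27, 4.42 and 5.95 at P0 (log2 -2.46, SE 0.43, adjusted p = 0.047 in limma). Its paralogue Sp9 had 0.219, 0.146, 0.0227 and 0.024 at P2, against 0.227, 0.489, 0.591 and 0.359 at P0 in the same order of conditions (log2 -2.60, SE 0.82, adjusted p = 0.087). Between the shRNA arrays at P2, 7 of the 14 were higher by 2-fold or more with Nr2f1/2 shRNA and 2 were lower, with a median of 1.0, beside 9.00% of all genes higher and 9.86% lower. The higher ones included Nkx2-1, which sets medial ganglionic eminence identity (at least 53.1-fold), and the optic stalk and ventral forebrain factor Vax1 (7.22-fold). Olig2, a progenitor and oligodendrocyte factor, was 4.31-fold lower, and Meis2, a marker of lateral ganglionic eminence derivatives, was 3.57-fold lower.

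Genes of GABAergic differentiation, many of them known to depend on Dlx1 and Dlx2, were spread on both sides of 0. Of 23 tested of 24 listed, none was called higher with passage and 1, the neuropeptide gene Sst, was called lower (log2 -3.14, SE 0.44, adjusted p = 0.037 in limma), beside 2.36% of all genes called lower, and the median was -0.36. Gad1, which encodes a GABA-synthesising enzyme, had 5.14 in Nr2f1/2 shRNA, 6.03 in control shRNA, 2.32 in miR-17 and 0.935 in control miRNA at P2, against 2.43, 5.11, 2.85 and 3.03 at P0 (log2 -0.17, SE 0.47, adjusted p = 0.805). Gad1 was thus 1.17-fold lower with Nr2f1/2 shRNA at P2, where Dlx2 was 4.93-fold higher. At P0 both were lower with Nr2f1/2 shRNA, Gad1 by 2.10-fold and Dlx2 by 2.18-fold. With Nr2f1/2 shRNA at P2, 3 of the 23 were higher by 2-fold or more and 3 lower (9.00% and 9.86% of all genes), with a median of -0.25, and Lhx8, a homeobox gene of ventral cholinergic and GABAergic lineages, was at least 32.2-fold higher.

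Pallial regulators form the dorsal forebrain programme that Gsx2 is known to hold back. Of 12 tested, none was called higher and 7 lower (Emx2, Neurog1, Neurog2, Eomes, Tbr1, Neurod1 and Dmrta2), beside 2.60% and 2.36% of all genes. The other 5 did not pass the test, all 12 fitted differences were below 0, and the median was -2.79, beside -0.21 over all genes. Tbr1, a factor of early cortical neurons, had 0.880 in Nr2f1/2 shRNA, 3.1 in control shRNA, 0.0813 in miR-17 and 0.0574 in control miRNA at P2, against 17.6, 21.2, 2.00 and 4.46 at P0 (log2 -4.50, SE 0.57, adjusted p = 0.036 in limma). Eomes, a factor of intermediate progenitors of the cortex, fell by 3.37 log2 units (SE 0.44, adjusted p = 0.036). With Nr2f1/2 shRNA at P2, 4 of the 12 were higher by 2-fold or more (9.00% of all genes) and 1, Tbr1 at 3.52-fold, was lower (9.86%). The higher ones included Neurog2 (13.2-fold), Neurod1 (4.07-fold) and Lhx2 (4.01-fold). Of the dorsal spinal cord and hindbrain regulators, 16 tested of 19 listed, 1 was called higher (Dbx2) and 6 lower (Pax3, Pax7, Dbx1, Tal1, Lhx1 and Lhx5), with a median of -1.37, beside 2.60% of all genes called higher and 2.36% lower. With Nr2f1/2 shRNA at P2, 4 of these 16 were higher by 2-fold or more, among them Olig3, a dorsal progenitor factor, by at least 46.4-fold, and 2 were lower (9.00% of all genes higher, 9.86% lower).

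**Figure D4:**
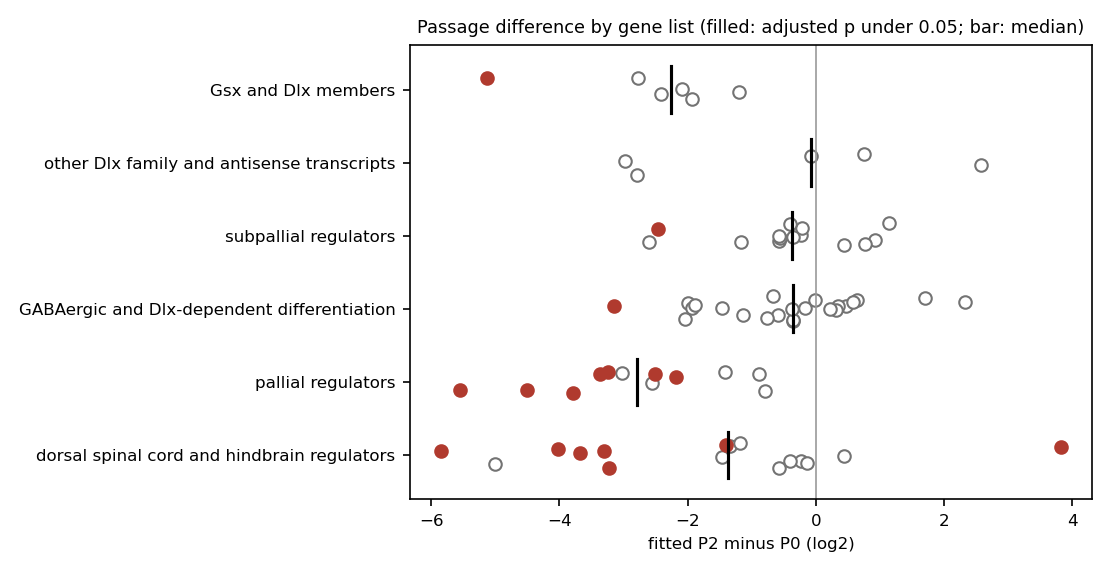
Fitted P2 minus P0 (log2, horizontal axis) of every tested gene of 6 lists, filled where the adjusted p was under 0.05, with a bar at each list's median. The Gsx and Dlx genes have a median of -2.25 with 1 filled point, the pallial regulators -2.79 with 7, the subpallial regulators -0.38 with 1 and the GABAergic genes -0.36 with 1.

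The genes most like each of the 6 over the arrays were named by Pearson's r of log2 values over 8 arrays, among 14842 named genes well above background on at least 4, as a description. The 8 arrays share a slide and a scan, and arrays of the same passage or vector share culture history. For Dlx2 the closest were Magel2, an imprinted gene (r = 0.994), Dlx5 (0.992) and Peg10, also imprinted (0.989). For Dlx5 they were Dlx2 (0.992), the cytoskeletal gene Add2 (0.992) and the surface protein gene Cd24a (0.992), and for Dlx1 the histamine receptor gene Hrh3 (0.992), Slc10a4 (0.990) and the microtubule regulator Stmn1 (0.984). Magel2 showed the pattern plainly, with 15.5 in Nr2f1/2 shRNA, 3.9 in control shRNA, 1.55 in miR-17 and 0.538 in control miRNA at P2, against 12.0, 19.6, 18.1 and 19.6 at P0. For Gsx1 the closest were Tmem151b (0.976), Sp9 (0.974) and Dlx5 (0.972), for Gsx2 Mex3d (0.995), Zfp710 (0.993) and Fam110a (0.993), and for Dlx6 Dmrtb1 (0.996), Celsr3 (0.990) and Sox12 (0.987). Within the family Dlx2 and Dlx5 were thus nearest to each other. Gsx2 had its r with the other 5 between 0.830 (Dlx1, ranked 2004 among the 14842 genes) and 0.914 (Dlx5, ranked 857).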

How the data were processed

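Total RNA of 8 neurosphere cultures was measured on Agilent single-colour mouse arrays, 1 array a group. Per the file headers they shared 1 slide and 1 scan. The authors' deposited scanner files give intensity per spot, background-subtracted by Agilent Feature Extraction 10.7.3.1 per the submitters' processing notes. A deposited value table of the authors holds signal equal to this intensity over 1 constant per array (481 to 949). Scale and direction are thus linear, no gene was centred (column medians 0.0662 to 0.124), and the basis of the constants is unknown. Probe coordinates are mm9 per the file headers.

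Control spots and 1104 outlier spots were left out, and 28 of 55681 probes lost every spot on some array. Intensities were put on the log2 scale and each array's 75th percentile was subtracted. The 75th percentile intensity was 530 to 1065 and 57.9% to 67.9% of spots other than controls were well above background, with no saturated spot. The number of arrays limits the precision. The brightest probe per gene was taken first, and a gene was tested where that probe was well above background on at least 2 arrays. Of all probes, 39669 met this limit. Of the probes, 26413 were named by accession through RefSeq and 29240 by the file.

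limma 3.58.1 in R 4.3.3 was fitted to 27264 genes with condition and passage (3 residual degrees of freedom, 2.20 prior), and again with interactions of each manipulation with passage, both controls sharing 1 passage effect (1 residual, 3.03 prior). Benjamini-Hochberg adjusted p under 0.05, two-sided, was called. P-values measure the spread between these cultures, which in the first fit includes any difference in passage change between the 4 conditions. Single arrays were compared at 2-fold with no test. Where the dimmer array was not well above background, "at least" sets it at the higher of its own signal and the faintest detected signal on that array. The fits were tested on simulated data. Alternatives changed the background correction, normalization, filter, probe choice, source of values, prior, block and arrays. The members and lists were chosen with earlier results of these data known. Besides the members, the genes named were those of each list with the largest passage difference (up to 4) or single-array difference (up to 2 for Nr2f1/2 shRNA at P2 and for miR-17 at each passage), and the 3 genes with the highest correlation with each member. The called genes of a list were named after their values were seen. Nr2f1 and Nr2f2 were named as the targets of the shRNA. Some genes picked by this rule are not reported here.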

Additional observations from a re-analysis of the deposited data

Results flagged for a closer look

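Dlx1 on the Nr2f1/2 shRNA array at P0 lay apart from the other primary arrays, with a log2 relative signal of 0.93 where the other 3 lay between 1.92 and 2.08, a gap of 0.861 of the range. Its antisense transcript Dlx1as lay apart on the same array, with -4.42 where the other 3 lay between -3.07 and -2.86 (0.865 of the range). Of the 18 groups of 4 arrays examined, chance flags about 1 in 20.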

How the results depend on the processing

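The number of the 6 genes called for passage was 1. It was 2 with normexp background correction (7073 genes called in all), 0 with a filter on all 8 arrays, which does not test Gsx2, and 0 to 6 when 1 array was left out. It was 0 in the shRNA arrays alone, 6 in the miRNA arrays alone, and 6 without both Nr2f1/2 shRNA arrays, an alternative chosen after seeing the data. Quantile normalization, no filter, the mean of probes, the authors' table, a trended prior (4307 genes in all) and a fit with no replicate block, in which condition was left out (3923 genes), each called 1. The other tests called 0 of 6 under every alternative run. Of the single-array counts at 2-fold, Nr2f1/2 shRNA against control shRNA at 4-fold gave 2 at P2 (4 at 2-fold) and 0 at P0 (4 at 2-fold). miR-17 against control miRNA at P2 gave 1, the dim Gsx2, and gave 0 with normexp, 5 at 1.5-fold and 0 at 4-fold. The 5 were the Dlx genes, higher, and the dim Gsx2, lower. Control miRNA against control shRNA gave 3 at 4-fold at P2 (5 at 2-fold) and 1 at 1.5-fold at P0 (0 at 2-fold). The shares of all genes at 1.5-fold and 4-fold are not given here, so these counts do not show whether the 6 genes stood out at those limits. Leaving out 1 array turned the sign of uncalled log2 differences over both passages. For Nr2f1/2 shRNA they ran between -1.95 and 1.17 for Gsx1, -0.95 and 3.06 for Gsx2, -1.97 and 2.27 for Dlx1, -1.74 and 2.92 for Dlx2, -1.64 and 1.82 for Dlx5, and -0.73 and 0.84 for Dlx6. For miR-17 they ran between -1.07 and 1.06 for Gsx1, -1.80 and 0.57 for Gsx2, -1.05 and 1.89 for Dlx1, -1.08 and 1.89 for Dlx2, and -0.64 and 1.75 for Dlx5. Between the controls they ran between -1.82 and 0.31 for Gsx1 and between -2.79 and 0.18 for Dlx2. Gsx2 at P2 is limited by signal over background on the miRNA arrays, and every single-array difference by its 1 array a group.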
